A study of Mus musculus with 18 samples.

Results

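Brachial motor neurons (MNs) of mouse embryos at e12.5 are compared here, gene by gene, with those of pups at postnatal day 8 (p8). A gene was taken where its base mean reached 10 or more. The base mean is the average read count over the libraries of both stages after scaling for depth. This rule kept 15364 of 27179 genes, of which 15008 (97.7%) had a gene symbol. A p-value was listed for 13288 of them. By DESeq2's Wald test, with p-values adjusted after Benjamini-Hochberg, 4084 genes (30.7% of those tested) were higher at e12.5 and 4122 (31.0%) were higher at p8 at an adjusted p under 0.05, and 5082 were not called. A further 2076 genes (13.5%) were listed without a p-value. A gene that is near 0 at one stage entered only through its level at the other, so such a gene had to differ.

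RNA-Seq was run on 18 samples of sorted MNs, 9 of which make the comparison of stages. The 6 e12.5 samples were GFP-positive cells of Mnx1-GFP embryos labelled wildtype, and the 3 p8 samples were tdTomato-positive cells of Chat-IRES-Cre::Ai9 pups, both from the brachial cord. Cords of several animals were pooled for each replicate. The e12.5 controls come from the comparison of stages and from a mutant experiment that took a slightly different span of segments, whose controls the study describes as Hoxc8 fl/fl, and the labels do not say which sample belongs to which. The same genes were also looked up in p8 thoracic and p8 lumbar samples (3 each, of the p8 genotype) and in 3 e12.5 brachial Hoxc8 MNΔ samples, in which the floxed gene is deleted by Olig2-Cre in MN progenitors. Mnx1-GFP and Chat-IRES-Cre both also mark small non-MN populations, and the Ai9 reporter stays on in any cell that made Cre at any time. Stage and reporter line changed together, so the part of each cannot be told apart.

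MNs of the brachial cord innervate the forelimb. At e12.5 they are young postmitotic neurons whose axons have left the cord and whose identity is still being set by transcription factors and chromatin regulators. At p8 they are wired to muscle, sit among glia that are wrapping axons in myelin, and drive early postnatal movement. Families of chromatin, RNA-binding, cytoskeletal, synaptic, lysosomal, lipid and immune genes are described below in that order, with the myelin, Hox and axon guidance genes left aside.

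The deposited tables give 1 base mean, 1 fold change and 1 standard error per gene, and no value per sample. The level of a gene at each stage was solved from its base mean and fold change, so levels carry no SD, and the error of each difference is the 95% interval of its log2 fold change. Levels are in normalized counts, which are not divided by gene length, and are compared between stages only. A log2 fold change above 0 means a higher level at e12.5. The replicates are separate pools of animals, and the 95% intervals rest on the spread between them.

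The scaling factor of each library, called its depth here, was recovered from genes with a single read in a single library. It depends on the make-up of a library as well as on its read total, which was not available. The 6 e12.5 libraries were alike, with 1 read worth 0.586 to 0.755 normalized counts. The 3 p8 libraries were not, with 1 read worth 0.690, 1.04 and 11.9. The scaling factor of the shallowest p8 library was therefore 17.3-fold and 11.5-fold below those of the other p8 libraries, and that library stands apart. A single read in it sets a p8 level of 3.98, and 876 genes had a p8 level below that, 867 of them called higher at e12.5. Named below among these are Chd5, Srrm4, Igf2bp1, Rimbp2, Npas4, Notch3, Gdf11, Gli2, Spock1, Slc6a17 and Hba-x. A single read of that library would exceed their p8 levels, so their folds and intervals are uncertain. No value without this library could be computed. A floor of 3 reads over all libraries of a stage equals a level of 0.332 at e12.5 and of 1.20 at p8, and covers counting error only. The fitted level was under the p8 floor for 568 genes and under the e12.5 floor for 103 genes, and for these the fold is given as a bound ("at least").

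The label of the cells was checked first, and the markers that define MNs were low in the p8 samples. Of 10 MN markers, 7 were higher at e12.5 and 0 at p8, with a median log2 fold change of 5.17. Mnx1, the homeodomain gene of the e12.5 reporter, was at 3504 at e12.5 and 5.80 at p8. Isl1, a LIM homeodomain gene of MN identity, was at 469 at e12.5 and under the floor at p8. Chat, which makes acetylcholine, was at 202 at e12.5 and 37.8 at p8 and was not called (log2 fold change 2.42, 95% interval 0.08 to 4.76, Benjamini-Hochberg adjusted p = 0.0836). Slc5a7, the choline transporter, was at 182 at e12.5 and 266 at p8 and was not called either. The MN markers made up 0.0559% of all normalized counts at e12.5 and 0.00338% at p8.

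Markers of other cells moved with stage. All 12 oligodendrocyte markers and all 9 microglia markers were higher at p8, with medians of -11.81 and -7.40. The oligodendrocyte markers alone were 43.7% of the normalized counts at p8 (Mbp 36.6%) and 0.00998% at e12.5. At e12.5, 10 of 11 spinal interneuron markers were higher, with a summed share of 0.16% against 0.000276% at p8. That share at e12.5 stood beside 0.0559% for the MN markers, so the e12.5 samples also held transcripts of spinal interneurons. Shares of different lists do not give a ratio of cells. In sorted bulk samples, fewer cells of a type and less RNA per cell cannot be told apart. The samples of both stages are therefore called samples and not MNs in what follows, and a gene higher at e12.5 need not be a gene of MNs. How far these cells set the differences below was not tested.

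Scaling matters for the direction of small differences. The summed levels were 15398259 at e12.5 and 36210981 at p8, a gap of 1.23 on the log2 scale, while the median gene lay at -0.02. Setting the sums equal would raise every log2 fold change by that gap. Of 107 gene families and pathways other than cell type markers, 45 had more members higher at e12.5, 54 more at p8 and 8 were even. Over all tested genes 30.7% were higher at e12.5 and 31.0% at p8. A family whose shares are near these is not set apart by its counts. Equal sums turned the lead of 23 lists from p8 to e12.5, which is said beside each such list described here. Re-centring on the median gene turned none.

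**Figure D1:**
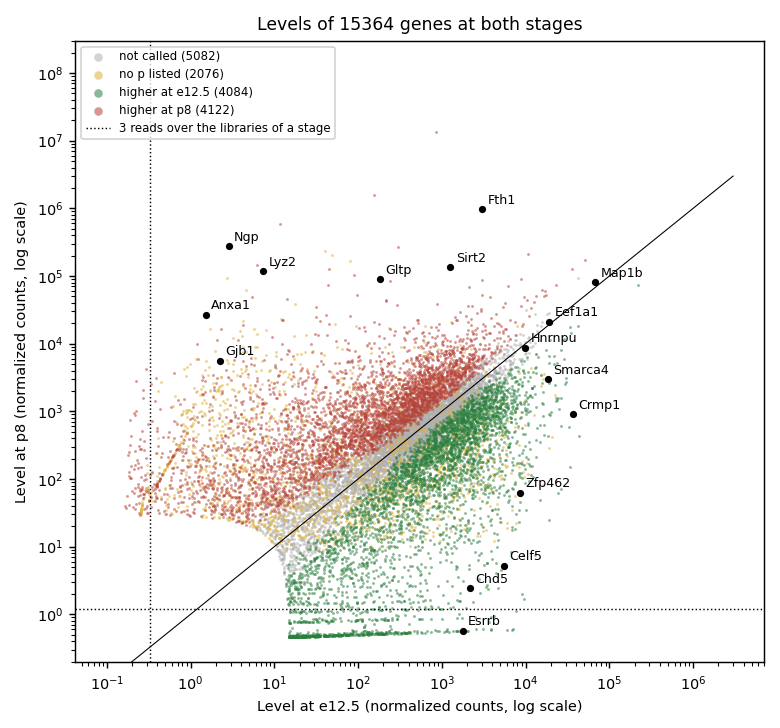
Level of each of the 15364 genes at e12.5 (x axis) and p8 (y axis), in normalized counts on log scales, coloured by call. The diagonal marks equal levels and the dotted lines the floor of 3 reads at each stage. Genes of both colours spread over several orders of magnitude from the diagonal, and the band along the bottom holds genes whose p8 level lies under the floor.

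**Figure D2:**
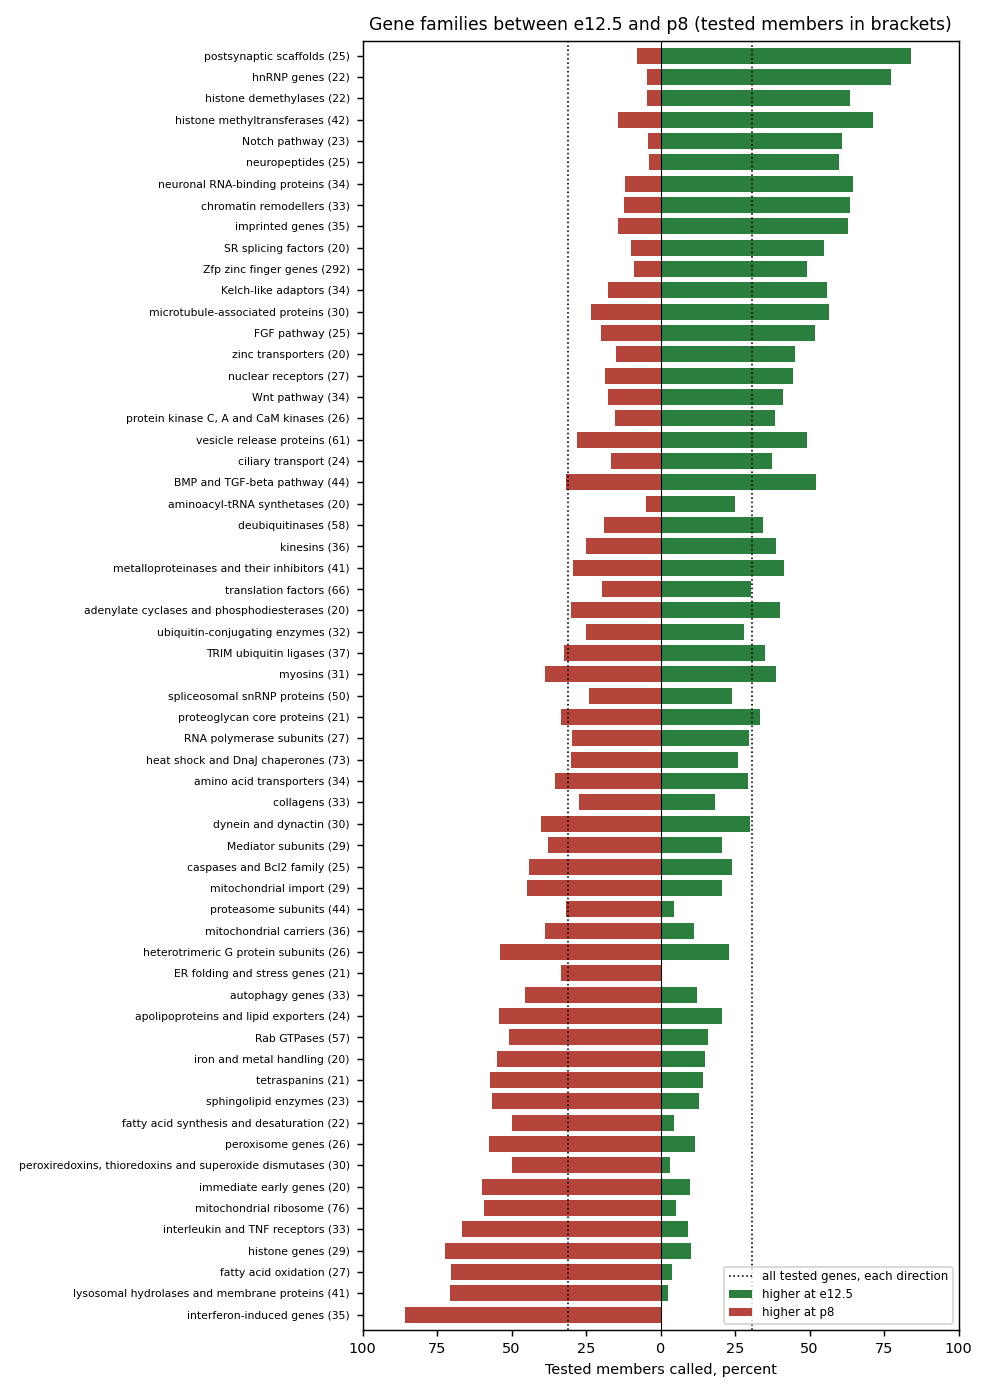
Share of tested members called higher at e12.5 (right) and at p8 (left) in 60 lists with at least 20 tested members, in percent. Over all tested genes the shares were 30.7% and 31.0%. Lists of postsynaptic, chromatin and RNA-binding genes lie to the right and lists of lysosomal, interferon-induced and fatty acid oxidation genes to the left, and 23 of the 107 lists change sides if the sums of both stages are set equal.

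The genes with the smallest p-values at e12.5 had varied roles, and 5 of them are given here. Mex3a, an RNA-binding ubiquitin ligase (chr3:88531946-88541394, GRCm38.p6), was at 8246 at e12.5 and 23.5 at p8 (log2 fold change 8.46, 95% interval 7.79 to 9.13). Pcbp2, which binds poly(C) RNA, was at 4122 at e12.5 and 537 at p8, and Paip1, a partner of the poly(A)-binding protein, was at 1990.0 at e12.5 and 138 at p8. Enc1, a Kelch protein of neurons, was at 10209 at e12.5 and 35.2 at p8 (log2 fold change 8.18, 95% interval 7.41 to 8.95). Ssbp3, a cofactor of LIM homeodomain complexes (chr4:106911470-107049694), was at 7923 at e12.5 and 361 at p8 (log2 fold change 4.46, 95% interval 4.10 to 4.81). These 5 genes were above the floor at both stages. A single read in the shallowest p8 library adds 3.98 to a p8 level, and which library supplied their p8 reads could not be read. The lower p8 levels, such as those of Mex3a and Enc1, may therefore rest on few reads.

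The genes with the smallest p-values at p8 outside the myelin genes had varied roles as well, and 6 of them are given here. Dnm2, the dynamin that cuts endocytic vesicles (chr9:21424908-21507759), was at 1529 at e12.5 and 8155 at p8 (log2 fold change -2.42, 95% interval -2.64 to -2.19). Litaf, an endosomal membrane protein, was at 129 at e12.5 and 9660.3 at p8. Gltp, which carries glycolipids between membranes (chr5:114669490-114690935), was at 184 at e12.5 and 89979 at p8 (log2 fold change -8.93, 95% interval -9.93 to -7.94). Plekhb1, a pleckstrin homology protein, was at 89.3 at e12.5 and 102535 at p8, and Cdk18, a kinase of the PCTAIRE group, was at 4.60 at e12.5 and 4753 at p8. Adssl1, an enzyme of purine synthesis, was at 21.2 at e12.5 and 4309 at p8 (log2 fold change -7.67, 95% interval -8.40 to -6.94).

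The largest differences were near-complete. Scrt1 and Scrt2, neuronal repressors of the Snail family, were at 6862 and 5963 at e12.5 and under the floor at p8. With p8 set to its floor they were 5709-fold and 4961-fold higher at e12.5. The 95% intervals of their log2 fold changes, 11.52 to 15.48 and 11.30 to 15.29, reach below those folds. Cntn2, an adhesion protein of growing axons, was at 3128 at e12.5 and at least 2602-fold higher there. In the other direction, Cryab, a small heat shock protein, was at 4.18 at e12.5 and 19157 at p8 (log2 fold change -12.16, 95% interval -13.99 to -10.33). Klk6, a secreted protease, was under the floor at e12.5 and at 2765 at p8, at least 8319-fold higher. A called difference of over 100-fold was seen in 352 genes at e12.5 and 416 at p8 when the floor was applied.

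Chromatin regulators were mostly higher at e12.5. Remodelling ATPases and their partners move or eject nucleosomes, and 21 of 33 tested members were higher at e12.5 against 4 at p8. Their median over all 41 members was 2.12, beside -0.02 for all genes. Smarca4, the ATPase of BAF complexes, was at 18575 at e12.5 and 2976 at p8 (log2 fold change 2.64, 95% interval 2.36 to 2.93). Chd4, of the NuRD complex, was at 15726 at e12.5 and 1345 at p8 (log2 fold change 3.55, 95% interval 3.03 to 4.07). Chd3, its close relative, was at 14697 at e12.5 and 622 at p8 (log2 fold change 4.56, 95% interval 3.72 to 5.41). Chd5, the neuronal member of the same subfamily (chr4:152338646-152390194), was at 2174 at e12.5 and 2.42 at p8 (log2 fold change 9.81, 95% interval 8.48 to 11.14). The 3 NuRD ATPases were thus all higher at e12.5, and the fitted difference was smallest for Chd4 and largest for Chd5, with intervals that do not overlap between those 2 genes. The p8 level of Chd5 lies under that of 1 read in the shallowest library. Smarcc2, a core BAF subunit, was at 13359 at e12.5 and 4509.9 at p8 (log2 fold change 1.57, 95% interval 0.91 to 2.23). Members called higher at p8 included Ino80c, a subunit of the INO80 complex, at 514 at e12.5 and 1252 at p8.

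Histone methyltransferases showed a like split, with 30 of 42 tested members higher at e12.5 and 6 at p8 (median 1.62). Ehmt2, which methylates H3K9, was at 6926 at e12.5 and 1166 at p8 (log2 fold change 2.57, 95% interval 2.21 to 2.93). Nsd2, an H3K36 enzyme, was at 6735 at e12.5 and 689 at p8 (log2 fold change 3.29, 95% interval 2.55 to 4.03), and Kmt2a, an H3K4 enzyme, was at 5879 at e12.5 and 506 at p8. Prdm8 was at 1067 at e12.5 and under the floor at p8, at least 888-fold higher at e12.5. Of the exceptions, Kmt5a, which places the single methyl group on H4K20, was at 988 at e12.5 and 5402 at p8 (log2 fold change -2.45, 95% interval -2.83 to -2.08). Prdm1, also a regulator of blood cell differentiation, was at 4.34 at e12.5 and 259 at p8 (log2 fold change -5.90, 95% interval -7.52 to -4.28).

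The enzymes that remove or read such marks followed. Of 22 tested histone demethylases, 14 were higher at e12.5 and 1 at p8. Kdm1a, the LSD1 enzyme, was at 5363 at e12.5 and 1036 at p8, with a narrow interval of 2.12 to 2.63 around 2.37. Kdm5b, which removes H3K4 methylation, was at 5478 at e12.5 and 1063 at p8. Histone acetyltransferases and bromodomain readers had 10 members higher at e12.5 and 1 at p8, among them Kat6b at 1628 at e12.5 and 121 at p8 (log2 fold change 3.76, 95% interval 2.79 to 4.72). Ep300, a general coactivator, was at 3445 at e12.5 and 1406 at p8 and was not called, with an interval of -0.14 to 2.72.

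Histone deacetylases were more mixed, with 8 higher at e12.5 and 3 at p8. Hdac2 was at 5939.8 at e12.5 and 1139 at p8 (log2 fold change 2.38, 95% interval 1.93 to 2.84), and the cytoplasmic tubulin deacetylase Hdac6 was at 2987 at e12.5 and 178 at p8 (log2 fold change 4.07, 95% interval 3.22 to 4.93). Sirt2, the other tubulin deacetylase and a protein abundant in oligodendrocytes, went the other way, at 1262 at e12.5 and 134734 at p8 (log2 fold change -6.74, 95% interval -7.74 to -5.74). The 2 enzymes that act on tubulin therefore differed in opposite directions.

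Transcription factors with zinc fingers of the Zfp series had 144 of 292 tested members higher at e12.5 and 26 at p8, with a median of 1.43 over all 353. The summed levels of the list were 1.46% of normalized counts at e12.5 and 0.314% at p8. Zfp462, a large nuclear zinc finger protein, was at 8582 at e12.5 and 62.9 at p8. Zfp773 and Zfp940 were under the floor at p8, at least 277-fold and 223-fold higher at e12.5. Zfp36, which is no transcription factor of this kind but destabilizes AU-rich messenger RNAs, was at 102 at e12.5 and 17306 at p8 (log2 fold change -7.41, 95% interval -9.30 to -5.52). Zfp365 was at 16.5 at e12.5 and 3839 at p8 (log2 fold change -7.86, 95% interval -9.06 to -6.66).

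Among 27 tested nuclear receptors, 12 (44.4%) were higher at e12.5 and 5 (18.5%) at p8. Esrrg and Esrrb, the estrogen-related receptors gamma and beta, were both higher at e12.5. Esrrg was at 4464 at e12.5 and 5.79 at p8 (log2 fold change 9.59, 95% interval 8.27 to 10.91). Esrrb was at 1772 at e12.5 and under the floor at p8, at least 1474-fold higher at e12.5. Nr3c1, the glucocorticoid receptor, was at 41.8 at e12.5 and 2272 at p8 (log2 fold change -5.77, 95% interval -6.83 to -4.70).

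In the general transcription machinery, RNA polymerase subunits had 8 members higher at each stage, and 16 at e12.5 against 2 at p8 with equal sums. Polr2a, the largest subunit of polymerase II, was at 4904 at e12.5 and 1243 at p8 (log2 fold change 1.98, 95% interval 1.25 to 2.71). Mediator subunits had 6 higher at e12.5 and 11 at p8, a lead that equal sums turned to 17 and 2. Within it Med23 was at 1312 at e12.5 and 190.1 at p8, and Med30 at 289.6 at e12.5 and 1724 at p8.

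Core and linker histone genes ran against the other chromatin lists, with 21 of 29 tested members higher at p8 and 3 at e12.5 (median -3.78). H2aj, a variant made outside S phase, was at 373 at e12.5 and 5588 at p8 (log2 fold change -3.91, 95% interval -4.84 to -2.98). H4c8, a clustered H4 gene, was at 2.92 at e12.5 and 229.5 at p8 (log2 fold change -6.29, 95% interval -7.69 to -4.90). Against this direction, the linker variant H1f10 was at 914 at e12.5 and 84.0 at p8 and Macroh2a3 at 181 at e12.5 and 18.8 at p8. Clustered histone genes are near-identical copies, and their transcripts lack long poly(A) tails, so counts from unique reads are uncertain for single members.

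RNA-binding proteins formed a further e12.5 group. Neuronal splicing and stability factors had 22 of 34 tested members higher at e12.5 and 4 at p8 (median 2.13). Celf5 was at 5452 at e12.5 and 5.20 at p8 (log2 fold change 10.04, 95% interval 8.90 to 11.17). Nova1, a splicing factor of spinal and brainstem neurons, was at 15033 at e12.5 and 349 at p8 (log2 fold change 5.43, 95% interval 4.39 to 6.46). Igf2bp1, an oncofetal messenger RNA binder, was at 1013 at e12.5 and 1.20 at p8. Elavl3, a pan-neuronal factor, was at 15247 at e12.5 and 3403 at p8 (log2 fold change 2.16, 95% interval 1.09 to 3.24). Of the members called higher at p8, Qk, which governs myelin messenger RNAs in glia, was at 2895 at e12.5 and 32984 at p8 (log2 fold change -3.51, 95% interval -4.44 to -2.58), and Mbnl2, a muscleblind splicing factor that counters fetal splicing, was at 116 at e12.5 and 4345 at p8 (log2 fold change -5.23, 95% interval -6.12 to -4.35). Rbfox2 was at 16258 at e12.5 and 82.3 at p8 but was listed without a p-value.

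Splicing factors of wider use were also mostly higher at e12.5. hnRNP genes had 17 of 22 higher at e12.5, and 1, Hnrnpf, higher at p8 (264 at e12.5 and 1349.9 at p8). Hnrnpa0 was at 9053 at e12.5 and 246 at p8 (log2 fold change 5.20, 95% interval 4.54 to 5.86), and Hnrnph1 at 11953 at e12.5 and 1642 at p8 (log2 fold change 2.86, 95% interval 2.26 to 3.47). Hnrnpa2b1 was at 19448 at e12.5 and 11223 at p8, a much smaller difference (log2 fold change 0.79, 95% interval 0.54 to 1.05). SR proteins and their relatives had 11 higher at e12.5 and 2 at p8. Srrm4, which turns on neuronal microexons, was at 2875 at e12.5 and 2.05 at p8 (log2 fold change 10.46, 95% interval 9.08 to 11.83), and its relative Srrm3 was at 1639 at e12.5 and 21.0 at p8 (log2 fold change 6.29, 95% interval 5.59 to 6.98). Proteins of the spliceosomal snRNPs were even, with 12 higher at each stage and a median of 0.30. Under equal sums that became 37 and 1.

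The microRNA pathway leaned to e12.5, with 8 of 11 tested proteins higher there and 1 at p8. Ago1, an Argonaute protein that holds the guide microRNA, was at 6823 at e12.5 and 134 at p8 (log2 fold change 5.67, 95% interval 5.10 to 6.23). Dicer1, which cuts the hairpin, was at 4524 at e12.5 and 558 at p8 (log2 fold change 3.02, 95% interval 2.29 to 3.75), and Drosha, which releases it from the primary transcript, was at 4074 at e12.5 and 1291 at p8 (log2 fold change 1.66, 95% interval 0.96 to 2.36). Ago3 differed the other way, at 283 at e12.5 and 751 at p8 (log2 fold change -1.41, 95% interval -2.46 to -0.37).

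Of 16 microRNA loci and host transcripts, 7 were higher at e12.5 and 1 at p8. The reads come from primary or host transcripts and not from mature microRNAs. Mature sequences are printed here for the called loci with the highest base mean for which RefSeq (GRCm38.p6) holds one. The seed, bases 2 to 8 from the 5′ end, is in capitals, since it pairs with target messenger RNAs.
mmu-miR-9-5p: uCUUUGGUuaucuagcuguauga
mmu-miR-9-3p: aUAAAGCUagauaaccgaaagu
mmu-miR-92a-1-5p: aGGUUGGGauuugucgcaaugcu
mmu-miR-92a-3p: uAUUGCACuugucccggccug
mmu-miR-5125: uCUGCCUGggauuuccuugu
mmu-miR-1906: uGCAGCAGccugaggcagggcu
mmu-miR-682: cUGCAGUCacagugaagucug
All 7 seeds are different. The miR-9 pair lies in Mir9-3hg (miR-9-5p at chr7:79505279-79505301, plus strand), and miR-9 is a microRNA of neural progenitors and early neurons. Mir9-3hg was at 672 at e12.5 and 158 at p8 (log2 fold change 2.09, 95% interval 0.99 to 3.19). The miR-92a pair (miR-92a-3p at chr14:115044476-115044496, plus strand) lies in Mir17hg, host of the growth-linked miR-17 to miR-92 cluster, which was at 120.5 at e12.5 and 52.9 at p8 (log2 fold change 1.19, 95% interval 0.32 to 2.06). Mir5125 was at 167 at e12.5 and 8.53 at p8, but it lies inside Srrm2 on the same strand, and Srrm2 was at 23387 at e12.5 and 5109 at p8, so reads of the 2 cannot be told apart. Mir1906-2 was at least 29.3-fold higher at e12.5. Mir682 was the 1 locus called higher at p8, at 24.2 at e12.5 and 92.9 at p8 (log2 fold change -1.94, 95% interval -3.12 to -0.76). Mir124a-1hg, a host of the neuronal miR-124, was at 2498 at e12.5 and under the floor at p8, at least 2078-fold higher.

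Imprinted genes, expressed from 1 parental allele, had 22 of 35 tested members higher at e12.5 and 5 at p8 (median 2.20). Nnat, a small membrane protein of the fetal nervous system, was at 30596 at e12.5 and 3107 at p8. Magel2, of the Prader-Willi region, was at 1511 at e12.5 and under the floor at p8, at least 1257-fold higher at e12.5. Mirg, a transcript of the Dlk1-Meg3 region, was at least 314-fold higher at e12.5, and the paternal gene of that region, Dlk1, was at 1474 at e12.5 and 5.17 at p8 (log2 fold change 8.15, 95% interval 6.79 to 9.52). Exceptions were Cdkn1c, a cell cycle inhibitor, at 5765 at e12.5 and 16752 at p8 (log2 fold change -1.54, 95% interval -2.73 to -0.35), and Gnas, the stimulatory G protein, at 17249.8 at e12.5 and 59136 at p8 (log2 fold change -1.78, 95% interval -2.78 to -0.77).

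Postsynaptic scaffolds were mostly higher at e12.5, with 21 of 25 tested members higher at e12.5 and 2 at p8 (median 2.85). Dlg4, the PSD-95 scaffold of excitatory synapses, was at 5463 at e12.5 and 58.6 at p8 (log2 fold change 6.54, 95% interval 5.95 to 7.14). Shank1 was at 8454 at e12.5 and 114 at p8 (log2 fold change 6.21, 95% interval 5.24 to 7.17). Dlg1, a relative of Dlg4 that is not limited to synapses, went the other way, at 379 at e12.5 and 1675 at p8 (log2 fold change -2.14, 95% interval -2.92 to -1.37). So did Sorbs3, an adaptor at cell adhesions, at 39.7 at e12.5 and 1926 at p8 (log2 fold change -5.60, 95% interval -6.77 to -4.43).

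Presynaptic release proteins were more mixed, with 30 of 61 tested higher at e12.5 and 17 at p8. Rimbp2, an active zone protein, was at 716 at e12.5 and 1.65 at p8 (log2 fold change 8.76, 95% interval 7.24 to 10.28). Sv2a, a vesicle membrane protein, was at 5659 at e12.5 and 3472 at p8 and was not called, with an interval of -0.04 to 1.45. Members higher at p8 included proteins of secretion outside synapses, such as Unc13d, which primes granules of blood cells, at 20.9 at e12.5 and 1332 at p8 (log2 fold change -5.99, 95% interval -8.02 to -3.96). In the regional comparison at p8, Unc13d had a log2 fold change of 3.02 for brachial over thoracic and lumbar samples and was not called there.

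Receptors and peptides of neurons leaned to e12.5. Of 9 metabotropic glutamate and GABA-B receptors, 6 were higher at e12.5 and 0 at p8. Gabbr1, a GABA-B subunit, was at 10397 at e12.5 and 1069.7 at p8 (log2 fold change 3.28, 95% interval 2.53 to 4.03), and Grm5 was at 219.5 at e12.5 and 46.4 at p8 (log2 fold change 2.24, 95% interval 1.23 to 3.26). The list of neuropeptides and their granins, which also holds the growth factor binding protein Igfbp5, had 15 higher at e12.5 and 1 at p8. Pnoc, the precursor of nociceptin, was at 2571 at e12.5 and at least 2139-fold higher there, and Cartpt was at least 66.1-fold higher. Crh, the corticotropin-releasing hormone, was at 1.97 at e12.5 and 34.8 at p8 (log2 fold change -4.15, 95% interval -6.87 to -1.42), with a wide interval. Cnr1, the cannabinoid receptor of neurons, was at 4221 at e12.5 and at least 3512-fold higher there.

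Small ion-handling families split by member. Fxyd6 and Atp1b1, neuronal partners of the sodium-potassium pump, were both higher at e12.5. Fxyd6 was at 3401 at e12.5 and 776 at p8, and Atp1b1 was at 2387 at e12.5 and 432 at p8. Atp1b2, a subunit of glia, was at 174 at e12.5 and 1018 at p8 (log2 fold change -2.55, 95% interval -3.61 to -1.48). Zinc transporters had 9 members higher at e12.5 and 3 at p8. Slc30a3, which loads zinc into synaptic vesicles, was at 1137 at e12.5 and at least 946-fold higher there. Calcium exporters included Slc8a2 at 1919.8 at e12.5 and 17.6 at p8 (log2 fold change 6.77, 95% interval 5.70 to 7.83).

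Tubulins held members on both sides. Of 18 tested, 6 were higher at e12.5 and 2 at p8. Tubb5, a beta tubulin of dividing and young cells, was at 11179 at e12.5 and 994 at p8 (log2 fold change 3.49, 95% interval 3.23 to 3.76). Tubb4a, the beta tubulin of mature brain and oligodendrocytes, was at 8769 at e12.5 and 90917 at p8 (log2 fold change -3.37, 95% interval -4.34 to -2.40). Those 2 log2 fold changes were of like size and opposite sign. Proteins that bind microtubules had 17 of 30 tested members higher at e12.5 and 7 at p8 (56.7% and 23.3%). Stmn2, a tubulin-binding protein of growing axons, was at 16549 at e12.5 and 446 at p8 (log2 fold change 5.21, 95% interval 3.96 to 6.47). Tppp, a microtubule protein of oligodendrocytes, was at 524 at e12.5 and 19861 at p8 (log2 fold change -5.24, 95% interval -6.27 to -4.22), and Map7 was at 83.6 at e12.5 and 5437 at p8 (log2 fold change -6.02, 95% interval -7.30 to -4.75). Map1b was at 68222 at e12.5 and 80520.0 at p8 and was not called, with an interval of -1.43 to 0.95.

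Motor proteins were divided in the same manner. Kinesins had 14 members higher at e12.5 and 9 at p8. Kif5c, the kinesin-1 heavy chain of neurons, was at 26323 at e12.5 and 8128 at p8 (log2 fold change 1.70, 95% interval 0.34 to 3.05), while Kif5b, the chain made by most cells, was at 2026 at e12.5 and 35710.0 at p8 (log2 fold change -4.14, 95% interval -5.25 to -3.03). Kif21b was at 22980.1 at e12.5 and 1411 at p8 and Kif26b at 3877 at e12.5 and 25.3 at p8 (log2 fold change 7.26, 95% interval 5.34 to 9.17). Kif1a, the carrier of synaptic vesicle precursors, was at 13815 at e12.5 and 18889 at p8 and was not called, with an interval of -1.78 to 0.88. Of 30 tested dynein and dynactin genes, 9 were higher at e12.5 and 12 at p8, which equal sums turned to 15 and 7. The heavy chain Dync1h1 was at 29835 at e12.5 and 2500.3 at p8 (log2 fold change 3.58, 95% interval 2.97 to 4.18), and the light intermediate chain Dync1li2 was at 3722 at e12.5 and 49415 at p8 (log2 fold change -3.73, 95% interval -4.79 to -2.68). Subunits of 1 motor complex thus lay on both sides.

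The membrane skeleton leaned to e12.5, with 11 of 18 spectrin, ankyrin and linker genes higher there and 4 at p8. Sptan1, the alpha spectrin, was at 22221 at e12.5 and 2486 at p8 (log2 fold change 3.16, 95% interval 2.57 to 3.76). Sptbn1, the widespread beta spectrin, was at 10685 at e12.5 and 12046 at p8 and was not called. The 4.1 proteins Epb41l2 and Epb41l3 were both higher at p8. Epb41l2 was at 387 at e12.5 and 14511 at p8, and Epb41l3 was at 828 at e12.5 and 11939 at p8.

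Septins, GTPases that form filaments, had 6 of 10 tested members higher at p8 and 2 at e12.5. Septin4 and Septin8, known from myelin, were both higher at p8. Septin4 was at 122 at e12.5 and 15329.7 at p8, and Septin8 was at 505 at e12.5 and 22658 at p8 (log2 fold change -5.49, 95% interval -6.59 to -4.38). Septin3, a neuronal septin, was at 13140.1 at e12.5 and 376 at p8 (log2 fold change 5.13, 95% interval 4.70 to 5.56).

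Of 31 tested myosins, 12 (38.7%) were higher at each stage. Myh10, non-muscle myosin IIB, was at 8394 at e12.5 and 224 at p8 (log2 fold change 5.23, 95% interval 4.30 to 6.15). Myo5a, which carries cargo on actin in neurons, was at 7272 at e12.5 and 1385 at p8. Myo6 was at 602 at e12.5 and 11343 at p8 (log2 fold change -4.24, 95% interval -5.31 to -3.16), and the single-headed Myo1d, found in myelin, at 56.5 at e12.5 and 1525 at p8 (log2 fold change -4.76, 95% interval -5.80 to -3.71).

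**Figure D3:**
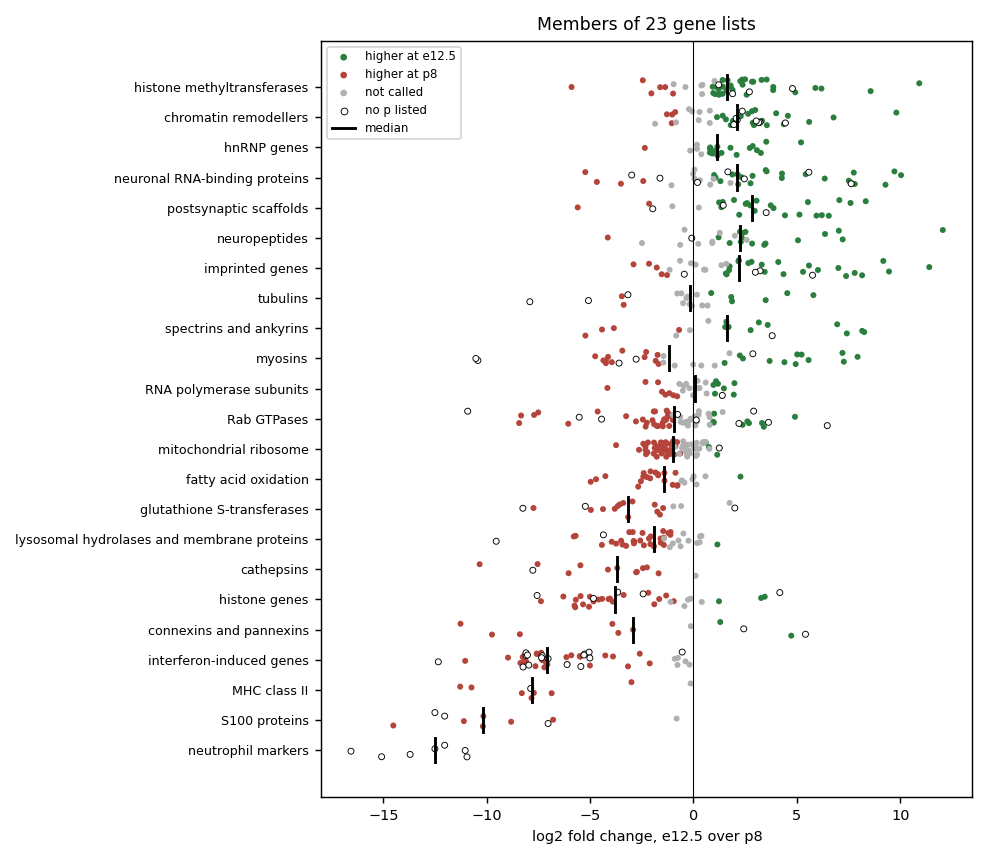
Log2 fold change of e12.5 over p8 for each member of 23 lists, with the list median as a bar. Points to the right of 0 are higher at e12.5. Tubulins, spectrins, myosins and connexins hold members on both sides of 0, whereas cathepsins, interferon-induced genes and MHC class II genes lie almost wholly to the left.

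Several small GTPases that switch actin were higher at p8. Rhoa was at 1078 at e12.5 and 12208 at p8 (log2 fold change -3.50, 95% interval -3.90 to -3.10), Rac1 at 3120.1 at e12.5 and 19368 at p8, and Cdc42 at 4179.8 at e12.5 and 18309 at p8 (log2 fold change -2.13, 95% interval -2.53 to -1.73). Rac3, the Rac gene of developing neurons, was at 1076 at e12.5 and 252 at p8 (log2 fold change 2.10, 95% interval 1.25 to 2.94) and so went against its relative Rac1. Rac2, the blood cell form, was at 6.21 at e12.5 and 14030.0 at p8 and had no p-value. Arp2/3 subunits and activators had 10 higher at p8 and 2 at e12.5, a lead that equal sums made even. Arpc1a, a subunit of the complex, was at 3128 at e12.5 and 12717 at p8, and Nckap1l, a blood cell subunit of the WAVE activator, was at 11.4 at e12.5 and 3392 at p8. Gsn, an actin-severing protein also of oligodendrocytes, was at 241 at e12.5 and 83012 at p8 (log2 fold change -8.43, 95% interval -9.43 to -7.42).

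Regulators of these GTPases differed by member. Dock2 and Dock8, exchange factors known from blood cells, were both higher at p8. Dock2 was at 32.1 at e12.5 and 4611 at p8, and Dock8 was at 10.2 at e12.5 and 4816 at p8. Srgap3, a membrane-bending activator of young neurons, was at 10866 at e12.5 and 94.4 at p8 (log2 fold change 6.85, 95% interval 6.22 to 7.48). Arhgap30, of blood cells, was at 4.22 at e12.5 and 2562 at p8.

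Small GTPases of membrane traffic were called mainly at p8 under the deposited scaling. Rab GTPases had 29 of 57 tested members higher at p8 and 9 at e12.5, a lead that equal sums turned to 19 at e12.5 and 12 at p8. Rab37 was at 8.41 at e12.5 and 2899.7 at p8 (log2 fold change -8.43, 95% interval -9.57 to -7.30) and Rab7b at 5.10 at e12.5 and 1651 at p8. Rab15 was at 355 at e12.5 and 33.6 at p8 (log2 fold change 3.40, 95% interval 2.12 to 4.68), and Rab3c, which tags synaptic vesicles, was at 10636 at e12.5 and 120.0 at p8 without a p-value. Of 8 annexins, which bind membranes in the presence of calcium, 4 were higher at p8, 0 at e12.5, and 4 had no p-value. Anxa5 was at 176 at e12.5 and 8632 at p8 (log2 fold change -5.62, 95% interval -6.94 to -4.29).

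The lysosome stood on the p8 side. Of 41 tested lysosomal hydrolases and membrane proteins, 29 were higher at p8 and 1 at e12.5 (median -1.91). Lamp1, the main lysosomal membrane protein, was at 2606 at e12.5 and 28176 at p8 (log2 fold change -3.43, 95% interval -4.02 to -2.85). Tfeb, the factor that turns on lysosomal genes, was at 33.2 at e12.5 and 1725 at p8 (log2 fold change -5.70, 95% interval -6.49 to -4.91). Npc2, a cholesterol carrier, was at 2097 at e12.5 and 9319 at p8 (log2 fold change -2.15, 95% interval -2.96 to -1.35). Ids, an enzyme that degrades sulfated sugars, was the member higher at e12.5, at 3149.6 at e12.5 and 1414 at p8. The motif TCACGTGA, bound by Tfeb and its relatives and read on both strands, was found from 250 bases before to 50 after the start in 3 of 35 of these promoters (8.57%) and in 2.01% of 11768 promoters of all genes compared. Of the 24 members called higher at p8 with a promoter, 2 held it. The share rests on 3 promoters and describes how the list was chosen, and a match shows no binding.

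Cathepsins, the lysosomal proteases, had 11 of 12 tested members higher at p8 and 0 at e12.5 (median -3.69). Ctsb was at 2317 at e12.5 and 15432 at p8 (log2 fold change -2.74, 95% interval -3.53 to -1.94), Ctsd at 2539 at e12.5 and 13837 at p8 and Ctsl at 1273 at e12.5 and 4097 at p8. Ctss, used by microglia and other antigen-presenting cells, was at 4.20 at e12.5 and 5453 at p8 (log2 fold change -10.34, 95% interval -12.45 to -8.24). The difference of Ctss thus lay well beyond that of the proteases made by most cells. V-ATPase subunits, which acidify the lysosome, had 10 higher at p8 and 2 at e12.5, and autophagy genes 15 and 4. Equal sums turned both leads to e12.5. Atp6v0a1, the V-ATPase subunit found on synaptic vesicles, was at 6025 at e12.5 and 2072 at p8, and Atp6v0e was at 194 at e12.5 and 2320.2 at p8.

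Enzymes that burn fatty acids were mostly higher at p8. Fatty acid oxidation had 19 of 27 members higher at p8 and 1 at e12.5 (median -1.41). Cpt1a, which admits fatty acids into mitochondria, was at 97.1 at e12.5 and 3046 at p8 (log2 fold change -4.97, 95% interval -5.86 to -4.08), and Hadh, a later step, was at 143 at e12.5 and 3762 at p8 (log2 fold change -4.71, 95% interval -5.79 to -3.64). Cpt1c, the brain form that does not serve oxidation, was at 1275 at e12.5 and 853 at p8 and was not called. Fatty acid synthesis and desaturation had 11 higher at p8 and 1 at e12.5, which equal sums turned to 7 and 8. Fasn, the synthase itself, was at 12203 at e12.5 and 9085 at p8 and was not called, while the elongase Elovl7 was at 7.53 at e12.5 and 5701 at p8 (log2 fold change -9.56, 95% interval -11.08 to -8.05) and the desaturase Scd1 at 354 at e12.5 and 17705 at p8 (log2 fold change -5.64, 95% interval -6.84 to -4.45). Sphingolipid enzymes had 13 higher at p8 and 3 at e12.5, and equal sums made them even. Cers2, the ceramide synthase of very long chains, was at 612 at e12.5 and 13170.4 at p8 (log2 fold change -4.43, 95% interval -5.10 to -3.76), and B4galt6, which makes lactosylceramide, was at 1100.3 at e12.5 and 98.5 at p8 (log2 fold change 3.48, 95% interval 2.47 to 4.50). Peroxisome genes led at p8 by 15 to 3, again a lead that equal sums turned.

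Carriers of small lipids differed by type. Crabp1 and Crabp2, the carriers of retinoic acid, were both higher at e12.5. Crabp1 was at 3479 at e12.5 and 5.72 at p8 (log2 fold change 9.25, 95% interval 7.74 to 10.76), and Crabp2 was at 1491 at e12.5 and 4.72 at p8. Dbi, which carries acyl-CoA, was at 808 at e12.5 and 9202 at p8 (log2 fold change -3.51, 95% interval -4.35 to -2.67), and Scp2, a sterol carrier, at 569 at e12.5 and 4471 at p8 (log2 fold change -2.97, 95% interval -3.40 to -2.55). The 2 retinoic acid carriers were thus on the e12.5 side and the acyl and sterol carriers on the p8 side.

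Genes of detoxification and iron storage were mostly higher at p8. Glutathione S-transferases had 13 of 16 tested members higher at p8 and 0 at e12.5 (median -3.16). Mgst3 was at 626 at e12.5 and 6600.4 at p8 (log2 fold change -3.40, 95% interval -4.62 to -2.18) and Gstm5 at 685 at e12.5 and 5290.4 at p8. Prdx1 and Prdx6, which remove peroxides, were both higher at p8. Prdx1 was at 368 at e12.5 and 11317 at p8 (log2 fold change -4.94, 95% interval -5.96 to -3.93), and Prdx6 was at 992 at e12.5 and 10438 at p8, while Prdx2 was at 10276 at e12.5 and 6024 at p8 and was not called. Of 20 genes of iron and metal handling, 11 were higher at p8 and 3 at e12.5. Fth1, the ferritin heavy chain that stores iron, was at 3054 at e12.5 and 966800.3 at p8 (log2 fold change -8.31, 95% interval -9.46 to -7.15). Its partner Ftl1 differed much less, at 5612 at e12.5 and 16558 at p8 (log2 fold change -1.56, 95% interval -2.21 to -0.91). Ireb2, which represses ferritin translation, was at 3143 at e12.5 and 628 at p8 (log2 fold change 2.32, 95% interval 1.69 to 2.96), and the iron importer Tfrc was at 1569 at e12.5 and 1453 at p8 with an interval of -0.69 to 0.91. Fth1 and Ftl1 have near-identical copies in the genome, so their counts from unique reads are uncertain.

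Cell junction and surface genes were mostly higher at p8. Connexins and pannexins had 6 members higher at p8 and 2 at e12.5. Gjb1, a gap junction protein of oligodendrocytes, was at 2.26 at e12.5 and 5575 at p8 (log2 fold change -11.27, 95% interval -13.07 to -9.46). Gjd2, the connexin of coupled neurons, was at 319.5 at e12.5 and 12.1 at p8 (log2 fold change 4.73, 95% interval 2.98 to 6.48). Tetraspanins had 12 of 21 tested members higher at p8 and 3 at e12.5. Cd9 was at 54.8 at e12.5 and 10844 at p8 (log2 fold change -7.63, 95% interval -8.78 to -6.48) and Cd81 at 771 at e12.5 and 12543 at p8 (log2 fold change -4.02, 95% interval -4.71 to -3.34), and Tspan13 was at 3378 at e12.5 and 1079 at p8. Integrins had 10 of 19 tested members higher at p8 and 1 at e12.5, the latter being Itga10, at least 97.3-fold higher. Itgb1, the common beta chain, was at 1734 at e12.5 and 8468 at p8 (log2 fold change -2.29, 95% interval -2.93 to -1.65).

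Signalling pathways of the embryo leaned to e12.5. Hedgehog genes pattern the ventral cord, and 11 of 15 tested members were higher at e12.5 against 1 at p8 (median 2.11). The ligand Shh, made by the floor plate and by some MNs, was at 183 at e12.5 and 4.94 at p8 (log2 fold change 5.21, 95% interval 2.89 to 7.53). The receptor Ptch1 was at 1513 at e12.5 and 362 at p8 (log2 fold change 2.06, 95% interval 1.06 to 3.07), and the effector Gli2 was at 110.1 at e12.5 and 2.58 at p8 (log2 fold change 5.41, 95% interval 3.76 to 7.06). Disp2, a relative of the ligand exporter, was at 5823 at e12.5 and 235 at p8 (log2 fold change 4.63, 95% interval 3.60 to 5.65). Hhip, a decoy that binds the ligand, was the member higher at p8, at 22.0 at e12.5 and 1397 at p8 (log2 fold change -5.99, 95% interval -7.17 to -4.82). Ligand, receptor and effector were therefore on one side and the decoy on the other.

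The Notch pathway had 14 of 23 tested members higher at e12.5 and 1 at p8. The receptor Notch3 was at 767 at e12.5 and 1.26 at p8 (log2 fold change 9.25, 95% interval 7.56 to 10.95), while Notch1 was at 1205 at e12.5 and 1809 at p8 and was not called, with an interval of -1.66 to 0.48. Numbl, an inhibitor of the receptor, was at 1809 at e12.5 and 212 at p8 (log2 fold change 3.09, 95% interval 2.37 to 3.82), and the coactivator Maml3 was at 1984 at e12.5 and 178 at p8. Lfng, which adds sugars to the receptor, was the member higher at p8, at 108 at e12.5 and 613 at p8 (log2 fold change -2.51, 95% interval -4.30 to -0.72). Notch3 was also lower in p8 brachial than in the other p8 samples (-4.70, called in that comparison), although its p8 brachial level was close to the floor.

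FGF, Wnt and BMP genes each led at e12.5, where the shares over all tested genes were 30.7% at e12.5 and 31.0% at p8. FGF genes had 13 higher at e12.5 and 5 at p8. The receptor Fgfr1 was at 1449 at e12.5 and 162 at p8 (log2 fold change 3.16, 95% interval 2.31 to 4.02), and Fgfr2, the receptor of oligodendrocytes and other cells, was at 429.6 at e12.5 and 1707 at p8 (log2 fold change -1.99, 95% interval -2.95 to -1.03). The ligand Fgf1, which adult MNs and other cells make, was at 3.67 at e12.5 and 794 at p8 (log2 fold change -7.76, 95% interval -9.16 to -6.35). Wnt genes had 14 and 6 of 34 (41.2% and 17.6%). The receptor Fzd3 was at 5548 at e12.5 and 589.7 at p8 (log2 fold change 3.23, 95% interval 2.23 to 4.24). The effector Tcf7l2, used by maturing oligodendrocytes, was at 37.4 at e12.5 and 1542 at p8 (log2 fold change -5.36, 95% interval -6.52 to -4.21). Ctnnb1, beta-catenin, was at 10771 at e12.5 and 8931 at p8 and was not called. BMP and TGF-beta genes had 23 and 14 of 44 (52.3% and 31.8%), the p8 share being near that over all tested genes. The ligand Gdf11, which helps to set Hox codes along the cord, was at 622 at e12.5 and 1.62 at p8 (log2 fold change 8.59, 95% interval 7.10 to 10.07). The endothelial receptor Acvrl1 was at 16.6 at e12.5 and 1149 at p8 (log2 fold change -6.12, 95% interval -7.33 to -4.90).

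Insulin-like growth factor binding proteins gave large differences of both signs. Igfbpl1, a marker of immature neurons, was at 3878 at e12.5 and at least 3226-fold higher there. Igfbp5 was at 7497 at e12.5 and 91.3 at p8 (log2 fold change 6.36, 95% interval 5.52 to 7.20), and Igfbp7, a protein of vessels, was at 45.4 at e12.5 and 1137 at p8 (log2 fold change -4.65, 95% interval -6.44 to -2.85).

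G protein signalling split by subunit. Heterotrimeric subunits had 14 members higher at p8 and 6 at e12.5, a lead that equal sums made even. Gng2 was at 9720.4 at e12.5 and 459 at p8 (log2 fold change 4.40, 95% interval 3.96 to 4.85) and Gnaq at 5049.7 at e12.5 and 962 at p8 (log2 fold change 2.39, 95% interval 1.77 to 3.02), whereas Gng8 was at 3.38 at e12.5 and 878 at p8 (log2 fold change -8.02, 95% interval -9.88 to -6.16). RGS proteins, which switch these subunits off, had 8 of 14 tested members higher at e12.5 and 5 at p8. Rgs8 was at 1726 at e12.5 and at least 1436-fold higher there, and Rgs12 was at 2355 at e12.5 and 151 at p8 (log2 fold change 3.97, 95% interval 3.59 to 4.34). Rgs1, of blood cells and microglia, was at 0.637 at e12.5 and 724 at p8 (log2 fold change -10.15, 95% interval -12.94 to -7.37).

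Ubiquitin ligase adaptors of the Kelch-like family had 19 of 34 tested members higher at e12.5 and 6 at p8 (55.9% and 17.6%, median 1.22). Klhl35 was at least 206-fold higher at e12.5, and Klhl4 was at 36.5 at e12.5 and 5491 at p8 (log2 fold change -7.23, 95% interval -8.46 to -6.01). TRIM ligases were close to even, with 13 and 12 of 37 tested members (35.1% and 32.4%), near the shares over all tested genes. Trim28, a corepressor that works with zinc finger proteins, was at 9783 at e12.5 and 1118 at p8 (log2 fold change 3.13, 95% interval 2.77 to 3.49), and Trim67, a neuronal member, at 7449 at e12.5 and 84.5 at p8 (log2 fold change 6.46, 95% interval 5.58 to 7.34). Trim30a, induced by interferon, was at 1.63 at e12.5 and 309 at p8 (log2 fold change -7.57, 95% interval -10.49 to -4.65).

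Genes for making and folding proteins shifted with the scaling. Translation factors had 20 of 66 tested members higher at e12.5 and 13 at p8, with a median of 0.06, and equal sums made this 48 and 2. The elongation factor pair was split. Eef1a1, the form of most cells, was at 19224 at e12.5 and 21189 at p8 and was not called, with an interval of -0.98 to 0.70. Eef1a2, which replaces it in mature neurons and muscle, was at 2068 at e12.5 and 22.2 at p8 (log2 fold change 6.54, 95% interval 5.38 to 7.71). Aminoacyl-tRNA synthetases had 5 of 20 tested members higher at e12.5 and 1 at p8, and 17 and 0 with equal sums. The CCT chaperonin, which folds actin and tubulin, had 4 of 8 tested subunits higher at e12.5 and 0 at p8, and 8 and 0 with equal sums.

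Proteasome subunits had 14 of 44 tested members higher at p8 and 2 at e12.5, turned by equal sums to 2 and 26. Psmb10, the immunoproteasome subunit, was at 146 at e12.5 and 1505 at p8 (log2 fold change -3.37, 95% interval -4.14 to -2.60), while the base subunit Psmd2 was at 4831 at e12.5 and 3884 at p8 and was not called. Heat shock and DnaJ chaperones had 19 higher at e12.5 and 22 at p8, also turned by equal sums. Hspa2 was at 28.1 at e12.5 and 1858 at p8 (log2 fold change -6.05, 95% interval -6.84 to -5.25) and the inducible Hspa1a at 34.0 at e12.5 and 1482 at p8 (log2 fold change -5.44, 95% interval -6.53 to -4.36). Hspa5, the chaperone of the endoplasmic reticulum, was at 8321 at e12.5 and 9637 at p8 with an interval of -0.90 to 0.48.

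Proteins of the mitochondrial ribosome had 45 of 76 tested members higher at p8 and 4 at e12.5, which equal sums turned to 7 and 24. Their median of -0.98 lies inside the gap between the sums. Mrpl33 was at 187 at e12.5 and 2506 at p8 (log2 fold change -3.74, 95% interval -4.37 to -3.12).

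Genes of the mitochondrial genome were called higher at p8 in 14 of 15 cases, COX1 being the exception, and by very unequal amounts. CYTB was at 51511 at e12.5 and 170147 at p8 (log2 fold change -1.72, 95% interval -2.86 to -0.59) and ND1 at 23359 at e12.5 and 74254 at p8 (log2 fold change -1.67, 95% interval -2.80 to -0.54). COX3 was at 85.2 at e12.5 and 5661 at p8 (log2 fold change -6.06, 95% interval -7.33 to -4.78) and ATP6 at 74.3 at e12.5 and 5447 at p8 (log2 fold change -6.20, 95% interval -7.54 to -4.85). The intervals of CYTB and ND1 did not overlap those of COX3 and ATP6, although all lie on the same circular genome. Nuclear copies of mitochondrial DNA are near-identical to parts of it, so unique reads undercount those parts and the values are uncertain.

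Protein kinases A, C and CaM had 10 of 26 tested members higher at e12.5 and 4 at p8. Camk2a, a kinase of excitatory synapses, was at 436 at e12.5 and 12.4 at p8 (log2 fold change 5.13, 95% interval 3.95 to 6.32), and Prkcq, the protein kinase C of T cells and muscle, was at 21.4 at e12.5 and 2524 at p8 (log2 fold change -6.88, 95% interval -7.97 to -5.80). Dual-specificity phosphatases, which switch off MAP kinases, had 10 of 17 tested members higher at p8 and 2 at e12.5. Dusp3 was at 152 at e12.5 and 2677 at p8 (log2 fold change -4.14, 95% interval -5.07 to -3.20). Dusp4 and Dusp8 had large differences the other way, at 7237 at e12.5 and 83.6 at p8 for the first and 5831 at e12.5 and 271 at p8 for the second, but both were listed without a p-value.

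Receptor-type tyrosine phosphatases had 8 of 17 tested members higher at e12.5 and 3 at p8. Ptprs, a receptor for proteoglycans on axons, was at 19289 at e12.5 and 2659 at p8 (log2 fold change 2.86, 95% interval 2.40 to 3.32), and its close relative Ptprf was at 7417 at e12.5 and 968 at p8. Ptprd, the third gene of that group, was at 6596 at e12.5 and 4977 at p8 with an interval of -0.66 to 1.47. Ptprb, the receptor of vessels, was at 32.3 at e12.5 and 651 at p8 (log2 fold change -4.33, 95% interval -5.95 to -2.72).

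Receptors for monoamines and acetylcholine had 8 of 13 tested members higher at e12.5 and 2 at p8. Htr5a and Chrm4 were at least 28.1-fold and 22.2-fold higher at e12.5, and Adra1b was at 31.3 at e12.5 and 672 at p8 (log2 fold change -4.43, 95% interval -5.91 to -2.94). Enzymes that make or break cyclic nucleotides had 8 higher at e12.5 and 6 at p8. Adcy1, the cyclase of neurons, was at 1615 at e12.5 and 73.5 at p8 (log2 fold change 4.46, 95% interval 3.18 to 5.74), and Pde4b was at 266 at e12.5 and 5526 at p8 (log2 fold change -4.38, 95% interval -5.12 to -3.64).

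The matrix around the cells held members on both sides. Agrn, the protein by which motor axons cluster acetylcholine receptors on muscle, was at 19142 at e12.5 and 927 at p8 (log2 fold change 4.37, 95% interval 3.49 to 5.25). The basement membrane linker Nid1 was at 423 at e12.5 and 5674 at p8 (log2 fold change -3.75, 95% interval -5.16 to -2.34). Among 21 tested proteoglycans, 7 (33.3%) were higher at each stage. Vcan, a large proteoglycan of the young nervous system, was at 7894 at e12.5 and 1122 at p8 (log2 fold change 2.82, 95% interval 1.13 to 4.51), and Bcan, its relative of the mature brain, was at 90.8 at e12.5 and 7727 at p8 (log2 fold change -6.41, 95% interval -7.86 to -4.96). Spock1, a small secreted one, was at 4696 at e12.5 and 2.48 at p8 (log2 fold change 10.89, 95% interval 9.62 to 12.15). Collagens had 9 higher at p8 and 6 at e12.5, which equal sums turned to 3 and 14. Col25a1, which motor axons need to enter muscle, was at 255 at e12.5 and at least 212-fold higher there, while Col3a1, of connective tissue, was at 1136 at e12.5 and 7810.1 at p8 (log2 fold change -2.78, 95% interval -4.09 to -1.48).

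Metalloproteinases and their inhibitors had 17 of 41 tested members higher at e12.5 and 12 at p8. Adamts3 was at least 243-fold higher at e12.5. Adamts4, which cuts proteoglycans, was at 27.5 at e12.5 and 9775 at p8 (log2 fold change -8.47, 95% interval -9.71 to -7.24). Mmp8 and Mmp9, stored in granules of neutrophils, were at 16466 and 18132 at p8 and at 5.74 and 93.6 at e12.5, without a p-value.

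Transporters of amino acids had 10 members higher at e12.5 and 12 at p8, which equal sums turned to 22 and 6. Slc38a1, the glutamine carrier of neurons, was at 9149 at e12.5 and 971 at p8 (log2 fold change 3.24, 95% interval 2.23 to 4.24). Slc6a17, a vesicle carrier of neutral amino acids, was at 1242 at e12.5 and 1.22 at p8 (log2 fold change 9.99, 95% interval 8.37 to 11.61). Carriers of fuel went the other way in several cases. Slc16a1, the lactate carrier used by oligodendrocytes and vessels, was at 131 at e12.5 and 3163 at p8 (log2 fold change -4.59, 95% interval -5.95 to -3.23), and Mpc1, which admits pyruvate into mitochondria, was at 101 at e12.5 and 3282 at p8 (log2 fold change -5.02, 95% interval -6.00 to -4.04). Slc25a1, the mitochondrial citrate carrier that feeds lipid synthesis, was at 2213 at e12.5 and 11005 at p8 (log2 fold change -2.31, 95% interval -3.39 to -1.24). The main ADP/ATP carrier Slc25a4 was at 8835 at e12.5 and 9693 at p8, with an interval of -1.12 to 0.85.

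Lipoproteins and lipid exporters had 13 members higher at p8 and 5 at e12.5, turned by equal sums to 7 and 10. Apoe, the lipid carrier of glia, was at 153 at e12.5 and 21114 at p8 (log2 fold change -7.11, 95% interval -8.33 to -5.88), and Apod was at 12.4 at e12.5 and 22314 at p8 (log2 fold change -10.82, 95% interval -12.26 to -9.38). Abcg4, a sterol exporter of neurons, was at 743 at e12.5 and at least 618-fold higher there. Carbonic anhydrases were split, with Car2, the form of oligodendrocytes and red cells, at 53.3 at e12.5 and 5179 at p8 (log2 fold change -6.60, 95% interval -7.76 to -5.45) and Car11, an inactive relative of the brain, at 499.6 at e12.5 and 22.5 at p8 (log2 fold change 4.47, 95% interval 3.80 to 5.14).

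Genes of cell death had 6 members higher at e12.5 and 11 at p8, which equal sums turned to 8 and 6. The protective Bcl2l1 and Bcl2l2, which spare neurons during developmental death, were both higher at e12.5. Bcl2l1 was at 3169 at e12.5 and 1573 at p8 (log2 fold change 1.01, 95% interval 0.45 to 1.58), and Bcl2l2 at 608 at e12.5 and 218 at p8 (log2 fold change 1.48, 95% interval 0.65 to 2.31). Mcl1, a short-lived member also vital to granulocytes, was at 2202 at e12.5 and 9569 at p8 (log2 fold change -2.12, 95% interval -3.39 to -0.85). Casp1, the inflammatory caspase, was at 0.637 at e12.5 and 410.2 at p8 (log2 fold change -9.33, 95% interval -11.54 to -7.12).

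Deubiquitinases had 20 of 58 tested members higher at e12.5 and 11 at p8. Usp22, which acts on histones, was at 13444 at e12.5 and 6967 at p8 (log2 fold change 0.95, 95% interval 0.30 to 1.60). Uchl1, an abundant enzyme of neurons, was at 7751 at e12.5 and 11472 at p8 with an interval of -1.75 to 0.62. Usp18, which removes the interferon-induced tag ISG15, was at 2.30 at e12.5 and 74.2 at p8 (log2 fold change -5.01, 95% interval -7.41 to -2.60). The Hippo pathway had 8 of 17 tested members higher at e12.5 and 5 at p8. Its effector Tead1 was at 628 at e12.5 and 16.2 at p8 (log2 fold change 5.28, 95% interval 4.26 to 6.30). The coactivator Wwtr1 was at 115 at e12.5 and 691 at p8 (log2 fold change -2.59, 95% interval -3.79 to -1.39). Genes of ciliary transport had 9 and 4, with Ift172 at 1347 at e12.5 and 297 at p8 (log2 fold change 2.18, 95% interval 1.02 to 3.34).

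Clock genes had 5 of 18 tested members higher at e12.5 and 7 at p8, which equal sums turned to 7 and 4. Clock itself was at 711 at e12.5 and 219 at p8 (log2 fold change 1.70, 95% interval 0.43 to 2.97), its inhibitor Cry2 was at 1069 at e12.5 and 230.5 at p8 (log2 fold change 2.21, 95% interval 1.42 to 3.01), and Rora was at 12.3 at e12.5 and 124 at p8 (log2 fold change -3.32, 95% interval -4.60 to -2.05). The 14-3-3 proteins, adaptors for phosphorylated partners, were mostly not called. Ywhag was at 10268 at e12.5 and 1599 at p8 (log2 fold change 2.68, 95% interval 2.33 to 3.04) and Ywhaq at 2149 at e12.5 and 7077 at p8 (log2 fold change -1.72, 95% interval -2.63 to -0.81), while Ywhab was at 6638 at e12.5 and 6742 at p8, with an interval of -0.44 to 0.40.

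Haemoglobin genes split by the age at which each is known to be used. The embryonic globins Hbb-y and Hba-x were both higher at e12.5, at 582 at e12.5 and 47.5 at p8 for the first and 220.0 at e12.5 and 3.53 at p8 for the second. The adult globin Hba-a2 was at 15.2 at e12.5 and 371 at p8 (log2 fold change -4.61, 95% interval -6.69 to -2.52), and Hbb-bs was under the floor at e12.5 and at 265 at p8. Globin genes are near-identical within each set, so single members are uncertain, and globin reads were found in the sorted samples of both stages.

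Few genes could be shown to be at a like level. The 95% interval lay within 2-fold both ways for 1155 genes (7.52%), of which 1057 were not called, and within -0.5 and 0.5 for 80. The other 4025 uncalled genes had wider intervals, and no likeness can be read from them. Hnrnpu, an abundant nuclear RNA binder, was at 9874 at e12.5 and 8764 at p8 with an interval of -0.14 to 0.48. Tcf25 was at 6777 at e12.5 and 6743 at p8, with an interval of -0.23 to 0.24. Vcp, a segregase of ubiquitylated proteins, was at 2970.0 at e12.5 and 3008 at p8, with an interval of -0.26 to 0.22, and Rbbp4, a histone chaperone shared by several complexes, at 4928 at e12.5 and 4497 at p8 with an interval of -0.08 to 0.34. Likeness depends on the scaling, and only 18 of the 1155 genes also lay within 2-fold with equal sums.

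Immune genes were nearly all on the p8 side. Of 35 tested interferon-induced genes, 30 were called at p8 and 0 at e12.5, and 16 of all 51 had no p-value (median -7.07). Stat2, a signal carrier of interferons, was at 640.5 at e12.5 and 732 at p8 with an interval of -0.62 to 0.23. Irf5, a regulator in myeloid cells, was at 3.41 at e12.5 and 1710.3 at p8 (log2 fold change -8.97, 95% interval -11.27 to -6.66). Ifi27l2a was under the floor at e12.5 and at least 1949-fold higher at p8.

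The promoters of the interferon list were read for the element through which interferons are known to act, so its share describes how the list was chosen. A pair of GAAA half-sites with 2 free bases between them, read on both strands, was found from 250 bases before to 50 after the start in 22 of 41 promoters (53.7%), against 437 of 11768 promoters of all genes compared (3.71%). It is the core of the element bound by IRF factors. Of the 24 members called higher at p8 with a promoter, 13 held it. The promoters of 3 members are printed here (RefSeq, GRCm38.p6, the 100 bases before the start, 5′ to 3′ on the strand of the gene) with the motif in capitals, to show how close to the start it can lie.
Ifi203 (chr1:173942493-173942592, minus strand): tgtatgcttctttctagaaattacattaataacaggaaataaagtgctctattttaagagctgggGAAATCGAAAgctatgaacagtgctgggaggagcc
Gbp2 (chr3:142620563-142620662, plus strand): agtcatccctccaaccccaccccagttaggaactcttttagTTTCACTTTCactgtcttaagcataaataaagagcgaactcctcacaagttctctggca
Gbp3 (chr3:142559944-142560043, plus strand): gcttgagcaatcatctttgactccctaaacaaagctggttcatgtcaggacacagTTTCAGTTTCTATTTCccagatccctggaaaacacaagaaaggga
Ifi203 was under the floor at e12.5 and at 57.0 at p8, Gbp2 at 0.872 at e12.5 and 249 at p8 and Gbp3 at 0.394 at e12.5 and 78.7 at p8. The copy in Ifi203 reads in the forward sense and that in Gbp2 in reverse, and Gbp3 holds 2 overlapping reverse copies. Genes of one family, such as the Gbp genes, share ancestry, and a match describes letters and no binding.

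Antigen presentation followed the same side. In the list of 9 MHC class II genes, 7 were called at p8 and 0 at e12.5 (median -7.83). Cd74, the chain that guards the groove, was at 3.34 at e12.5 and 5686 at p8 (log2 fold change -10.74, 95% interval -12.25 to -9.22). In the MHC class I list, 14 were higher at p8, 2 at e12.5 and 10 had no p-value. B2m, the common light chain, was at 76.2 at e12.5 and 10201 at p8 (log2 fold change -7.06, 95% interval -8.68 to -5.45). Class I genes are near-identical to each other, so single members are uncertain.

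Receptors and signals of myeloid cells had no member called at e12.5 in several lists. Toll-like receptors and adaptors had 9 higher at p8 and the other 10 without a p-value, and Fc receptors and Siglecs 8 and 9. Myd88, the adaptor of most Toll-like receptors, was at 61.0 at e12.5 and 2042 at p8 (log2 fold change -5.07, 95% interval -6.51 to -3.62). Interleukin and TNF receptors had 22 higher at p8 and 3 at e12.5. Csf3r, the receptor that neutrophils need, was at 1.43 at e12.5 and 3203 at p8 (log2 fold change -11.13, 95% interval -13.77 to -8.50). Il1rapl2 and Il17rd, at e12.5 at least 85.7-fold and 111-fold higher, were members of that list called the other way. Constant-region genes of immunoglobulins were higher at p8 in 5 of 5 cases, Ighm being at 6.26 at e12.5 and 3101 at p8 (log2 fold change -8.95, 95% interval -10.99 to -6.92).

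S100 proteins, small calcium binders, had 6 members higher at p8, 0 at e12.5 and 3 without a p-value (median -10.17). S100a16 was at 74.7 at e12.5 and 8242 at p8 (log2 fold change -6.79, 95% interval -7.86 to -5.72) and S100a13 at 2.78 at e12.5 and 3179 at p8 (log2 fold change -10.16, 95% interval -11.28 to -9.04). Serpins, inhibitors of proteases, had 9 higher at p8 and 2 at e12.5. Serpini1, the neuronal serpin, was at 2301 at e12.5 and 52.2 at p8 (log2 fold change 5.46, 95% interval 4.94 to 5.99), while Serpine2, an inhibitor of thrombin, was at 697 at e12.5 and 3733 at p8 (log2 fold change -2.42, 95% interval -3.43 to -1.42).

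Immediate early genes, which respond to activity and to stress, had 12 members higher at p8, 2 at e12.5 and 7 without a p-value (median -2.73). Junb was at 273 at e12.5 and 15366 at p8 (log2 fold change -5.81, 95% interval -7.20 to -4.43) and Fos at 2219.6 at e12.5 and 19004 at p8 (log2 fold change -3.10, 95% interval -4.59 to -1.61). Npas4, which responds to calcium entry in neurons alone, was at 208 at e12.5 and 1.31 at p8 (log2 fold change 7.31, 95% interval 5.61 to 9.01) and so was called the other way. TGACGTCA, the element bound by CREB, lay in 3 of 22 of these promoters (13.6%) and in 3.42% of those of all genes compared. That share too rests on 3 promoters and describes how the list was chosen. Cells were dissociated and sorted before RNA was taken, and the part of that handling was not tested.

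The genes without a p-value held many large differences. They numbered 2076, of which 941 were higher at e12.5 and 1135 at p8, with a median of -0.55, and 555 of them had a log2 fold change under -4 against 157 over 4. DESeq2 withholds a p-value where 1 library lies far from the others of its group, and which library that was could not be read from the table. Of 9 neutrophil markers, 7 were above the base-mean limit, and all 7 were in this set, with a median of -12.51. Ngp, a granule protein, was at 2.86 at e12.5 and 276985 at p8, Lyz2, lysozyme of myeloid cells, at 7.30 at e12.5 and 116569 at p8, and S100a9 at 40.0 at e12.5 and 232579.8 at p8. The 7 markers summed to 2.91% of normalized counts at p8 and 0.00122% at e12.5. At e12.5 the set held neuronal genes, among them Crmp1, a mediator of axon growth, at 36416 at e12.5 and 908 at p8.

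The p8 brachial samples were also compared by the authors with p8 thoracic and lumbar samples. That comparison and the comparison of stages share the 3 p8 brachial samples, so values are set side by side and no agreement is read from them. In it 47 of 14234 tested genes (0.330%) were called, 33 higher and 14 lower in the brachial samples, and 1092 had an unadjusted p under 0.05. The median regional log2 fold change of all genes was 0.025. It was 6.39 for neutrophil markers, 2.13 for interferon-induced genes, 2.11 for MHC class I, 1.92 for Fc receptors and Siglecs and 1.52 for MHC class II. It was -0.37 for microglia markers, -0.25 for oligodendrocyte markers and 0.24 for lysosomal genes. In medians, the immune and neutrophil lists lay higher in the brachial than in the other p8 samples. The lists of microglia and oligodendrocyte markers lay slightly lower. No regional p-value was listed for 7 of 7 neutrophil markers and 16 of 51 interferon-induced genes. The same held for 9 of 28 MHC class I genes and 9 of 17 Fc receptors and Siglecs. Called higher in the brachial samples were 2 interferon-induced genes, 1 MHC class I gene and 0 MHC class II genes. A withheld p-value can mark 1 outlying library, so these medians need not hold for each brachial sample.

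Ngp had a regional log2 fold change of 6.39 and Lyz2 of 6.06, neither with a p-value there. Irak3, a brake on Toll-like receptors, was called with 5.20, and Cd52, a surface protein of lymphocytes and granulocytes, with 4.76. Both were higher at p8 in the comparison of stages, at 14.8 at e12.5 and 1294 at p8 and at 1.22 at e12.5 and 5989 at p8. The part of blood cells in the immune differences was not tested.

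**Figure D4:**
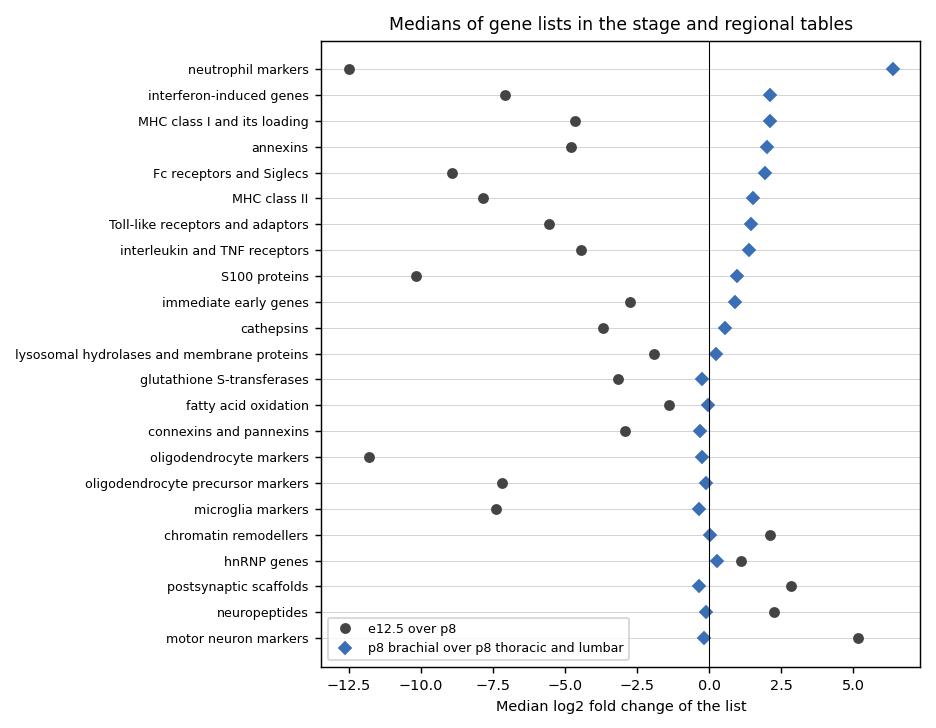
Median log2 fold change of 23 lists for e12.5 over p8 brachial samples (circles) and for p8 brachial over p8 thoracic and lumbar samples (diamonds). Neutrophil markers lie at -12.51 and 6.39 and interferon-induced genes at -7.07 and 2.13, while microglia markers lie at -7.40 and -0.37. The 2 comparisons share the p8 brachial samples, and 7 of 7 neutrophil markers and 16 of 51 interferon-induced genes had no regional p-value.

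The e12.5 comparison of control and Hoxc8 MNΔ samples was made per transcript, and each gene is read here from its transcript with the highest base mean. In it 6 of 13390 genes (0.0448%) were called and 152 had an unadjusted p under 0.05. Those 6 were Pisd-ps2, Gpr137b-ps, Hddc3 and Acaa1a, higher in the mutant, and Rgs5 and Cd248, higher in controls, with log2 fold changes of control over mutant from -0.42 to 0.38. Hoxc8, the deleted gene, was not among them. The study lists Hoxc8, Ret and Gfra3 among transcripts lower in the mutant. It also reports less Nrg1, Mcam, Pappa and Sema5a RNA in sections of mutant cords. A gene not called here is therefore not shown to be unchanged. Pisd-ps2 and Gpr137b-ps are pseudogenes, whose reads can be shared with their parent genes. The median absolute log2 fold change of the genes was 0.025 there, 0.494 between p8 regions and 1.51 between stages. Standard errors differed as well, from 0.073 to 0.083 for those 6 genes, beside a median of 0.568 over all genes between stages. Each comparison was fitted apart, so these medians are not on the same footing and do not rank the effects.

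Calls also varied with the length of the gene on the genome, which the choice of genes did not use. Among genes spanning under 10 kb, 25.5% were higher at e12.5 and 37.6% at p8. Among those over 300 kb, 53.2% were higher at e12.5 and 14.5% at p8, and the shares changed steadily in between. The Spearman correlation of span and log2 fold change over 15004 genes was 0.15, a weak relation across genes that share the same libraries. Long genes on the e12.5 side included Reln, a secreted guide of neuron position, at 22820.0 at e12.5 and 93.5 at p8 (log2 fold change 7.93, 95% interval 6.89 to 8.97). Myt1l, a neuronal repressor, was at 6631 at e12.5 and 8.40 at p8 (log2 fold change 9.62, 95% interval 8.57 to 10.68), and Cadps, a priming factor of dense-core vesicles, at 7066 at e12.5 and 71.6 at p8 (log2 fold change 6.63, 95% interval 5.86 to 7.39).

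**Figure D5:**
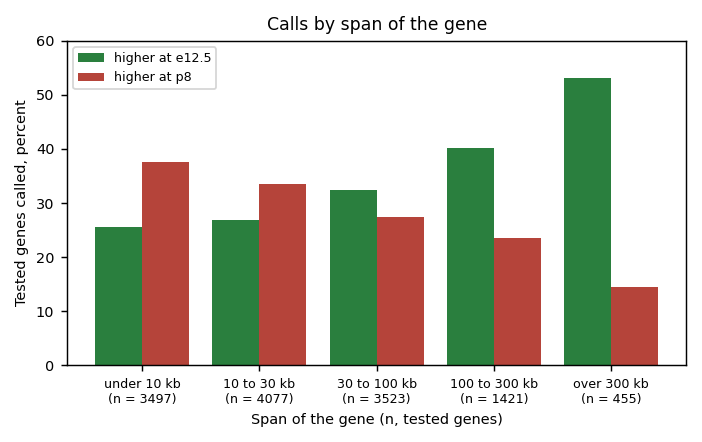
Share of tested genes called higher at e12.5 and at p8, in percent, by the span of the gene in kb, with the number of tested genes under each pair. The e12.5 share goes from 25.5% to 53.2% and the p8 share from 37.6% to 14.5% between the shortest and the longest genes.

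By class of gene, protein-coding genes had 3673 of 12234 tested members higher at e12.5 and 3851 at p8. Long non-coding RNAs had 184 and 139 of 493. Of 28 tested small nucleolar RNAs, which guide the modification of ribosomal RNA, 13 were higher at e12.5 and 0 at p8. Rmrp, the RNA of the RNase MRP enzyme, was at 110.5 at e12.5 and at least 91.9-fold higher there. Small nucleolar RNA host genes had 7 higher at e12.5 and 3 at p8, with Snhg11, a neuronal transcript, at 12016 at e12.5 and 154 at p8 (log2 fold change 6.29, 95% interval 4.47 to 8.11) and Snhg6 at 142 at e12.5 and 1572 at p8 (log2 fold change -3.47, 95% interval -4.51 to -2.44). Small RNAs overlap their hosts, so their reads may come from the host.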

How the data were processed

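RNA-Seq was run on 18 sorted samples, which were grouped by their labels. The authors aligned unique single-end reads to GRCm38/mm10 with HISAT, made gene counts in featureCounts and ran DESeq2 for each comparison on the Galaxy server (versions not given in the sources used here). The deposited tables hold only the authors' comparisons. Their base mean is a signal of normalized counts averaged over libraries, and the deposited fold change and its standard error are on the log2 scale. The deposited p-values are those of DESeq2's Wald test and were used as they stand, without refitting, since the comparisons rest on them.

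The p-values were adjusted after Benjamini-Hochberg over all genes of a table with a p-value, and genes with a base mean of 10 or more were kept. In the Hoxc8 comparison the adjustment ran over all transcripts with a p-value. The transcript with the highest base mean then stood for its gene. Levels at each stage were solved from base mean and fold change with weights of 6 e12.5 and 3 p8 samples, and are approximate. Intervals are 95% normal intervals. The scaling factors of the libraries, called depth here, were recovered from genes with 1 read in 1 library. The steps were tested on simulated data with Python 3.11.15, numpy 2.4.6, pandas 2.3.3 and scipy 1.17.1. Symbols, gene coordinates, promoters and microRNAs are from RefSeq (GRCm38.p6).

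Genes were named by a rule: the smallest p-values and largest folds in each direction without Hox and myelin genes, in each list the members with the highest base mean and the largest called folds, members called against their list, genes of like level, the genes without a p-value with the highest base mean, and cell type markers. Reln, Myt1l, Cadps, Ighm, Rmrp, Mir17hg, Mir5125, Ifi203, Gbp2, Gbp3, the mitochondrial genes and the 6 genes called in the Hoxc8 comparison were chosen after their values were seen. The genes and lists were chosen with earlier results of these data known. Alternatives changed the adjustment, the base mean limit, the fold required, the reference distribution and the scaling. Levels of individual samples were not used here, so neither an SD per level nor a fit without a library was computed. Some genes and lists are not reported here.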

Additional observations from a re-analysis of the deposited data

How the results depend on the processing

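No paired analysis was possible because the tables hold no value per sample, and for the same reason no library could be left out. The 4084 and 4122 calls at e12.5 and p8 became 2231 and 2075 (4306 in all) with a Bonferroni adjustment, 2673 and 2591 (5264 in all) with a fold over 4 required, and 7240 and 2110 with equal sums. With equal sums, 76 lists led at e12.5 and 26 at p8, in place of 45 and 54. The 1155 genes of like level became 701 with equal sums and 80 with the tighter bound of 0.5. In the Hoxc8 comparison, 152 genes passed an unadjusted p under 0.05 in place of 6. The other alternatives (the authors' own adjustment, a base mean of 100 or none, a t distribution, re-centring on the median gene) left both counts within 1.5 times. The 17.3-fold spread of scaling factors among p8 libraries limits what can be said of genes that are low at p8.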
